A study of Mus musculus with 15 samples.

Results

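The genes described here are 39 genes of the cell cycle, 19 that serve DNA replication and 20 that serve mitosis. They were taken by symbol from the 47729 features of a table of read counts, and all 39 of 39 were among the 24362 features that passed the filter on low counts. The RNA came from macrophages sorted as F4/80+ CD64+ from the aorta of female Apoe-/- mice, which lack apolipoprotein E and develop atherosclerosis; the sample labels write the genotype as Apoe dko. All animals were fed a High Fat Diet for 4 weeks, their aortas were pooled from 4 mice, and their age is not given in the sources used here. The cells were divided by the olfactory receptor Olfr2 into libraries labelled Olfr2+ (numbered samples 2, 3 and 4, in 10 columns) and libraries labelled Olfr2- (numbered samples 1, 3 and 4, in 5 columns), with no untreated, lean or wild-type group. Each sort held 100 to 200 cells and was amplified by Smart-Seq2, a low-input method in which cDNA is copied by PCR, here for 18 cycles before the library and 9 more in it. The series is titled for the proliferation of Olfr2-positive macrophages in situ, so the comparison asks whether genes of division differed between the libraries of each label.

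In a dividing cell, cyclin D with Cdk4 and cyclin E with Cdk2 release the E2F factors, which switch on the genes of replication. Origins are licensed by loading the Mcm helicase, DNA is copied at forks that slide on the Pcna clamp, and Cdk1 with the A and B cyclins then drives mitosis, which ends when the anaphase-promoting complex destroys those cyclins. Macrophages of the atherosclerotic artery are known to renew partly by local division. In bulk samples, fewer dividing cells and less RNA per dividing cell cannot be told apart.

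The replication and mitosis genes differed in the letters of their promoters. Of the 39 genes, 31 had a promoter in the RefSeq table for build GRCm38.p6, which runs from 250 bases before to 50 bases after each gene's start and gives 32 promoters because Mcm7 has 2. The letters CCAAT, bound by NF-Y, were found on either strand in 14 of 15 mitosis promoters and 9 of 17 replication promoters, against 37.4% of all 32851 promoters in the table. The letters TTTGAA, the core of the cell cycle homology region (CHR) that the MuvB complex reads, were found in 11 of 15 mitosis and 1 of 17 replication promoters, against 17.9% of all. The E2F letters were searched as TTCGCGC or TTGGCGC, or with a C in the middle as TTCCCGC or TTGCCGC. They were found in 3 of 15 mitosis and 10 of 17 replication promoters, against 9.57% of all. A match to TTGGCGC on the reverse strand that runs into T also holds CCAAT, and E2F matches on opposite strands can overlap. These are matches of letters and not measured binding. Gmnn, Mcm4, Ccne2, Ccna2, Aurkb, Tpx2, Kif20a and Stmn1 were without an entry.

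The 200 bases before the start are shown for 6 genes on which the results below turn, 5′ to 3′ on the gene's strand, with matches to any of these motifs, on either strand, in capitals. They lie in GRCm38.p6 at chr10:127063335-127063534 (plus strand) for Cdk4, chr6:88898781-88898980 (minus strand) for Mcm2, chr1:128359706-128359905 (minus strand) for Mcm6, chr10:69352913-69353112 (minus strand) for Cdk1, chr11:99024190-99024389 (minus strand) for Top2a, and chr7:135716380-135716579 (minus strand) for Mki67. Cdk4 and Mcm2 were the members with non-overlapping groups, Mcm6 stands for the E2F-rich replication promoters, and Cdk1, Top2a and Mki67 stand for the mitosis promoters. The Cdk4 promoter held 0 of these motifs in the whole stretch searched, while Mcm6, Cdk1 and Mki67 held E2F and CCAAT letters. Cdk1, Top2a and Mki67 each held the TTTGAA letters at more than 1 place, and Mcm2 was the replication promoter that held them.
Cdk4: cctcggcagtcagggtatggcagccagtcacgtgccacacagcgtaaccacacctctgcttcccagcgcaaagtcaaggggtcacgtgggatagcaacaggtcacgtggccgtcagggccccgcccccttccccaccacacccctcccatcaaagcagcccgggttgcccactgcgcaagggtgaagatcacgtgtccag
Mcm2: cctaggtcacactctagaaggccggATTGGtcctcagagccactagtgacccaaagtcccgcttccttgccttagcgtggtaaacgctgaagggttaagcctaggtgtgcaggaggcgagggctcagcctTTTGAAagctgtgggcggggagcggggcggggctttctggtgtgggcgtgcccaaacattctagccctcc
Mcm6: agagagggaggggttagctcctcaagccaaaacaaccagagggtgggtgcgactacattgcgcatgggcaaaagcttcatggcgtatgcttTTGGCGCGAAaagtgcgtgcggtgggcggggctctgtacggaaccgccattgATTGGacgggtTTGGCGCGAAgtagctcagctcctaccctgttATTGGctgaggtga
Cdk1: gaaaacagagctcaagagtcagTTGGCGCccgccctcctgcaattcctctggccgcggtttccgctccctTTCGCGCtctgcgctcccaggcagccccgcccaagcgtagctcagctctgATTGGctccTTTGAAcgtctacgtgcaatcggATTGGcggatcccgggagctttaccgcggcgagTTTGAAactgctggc
Top2a: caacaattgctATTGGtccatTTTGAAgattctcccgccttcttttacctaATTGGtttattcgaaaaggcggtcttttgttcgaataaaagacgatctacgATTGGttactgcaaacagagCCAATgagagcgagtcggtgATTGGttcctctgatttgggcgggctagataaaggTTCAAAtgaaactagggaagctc
Mki67: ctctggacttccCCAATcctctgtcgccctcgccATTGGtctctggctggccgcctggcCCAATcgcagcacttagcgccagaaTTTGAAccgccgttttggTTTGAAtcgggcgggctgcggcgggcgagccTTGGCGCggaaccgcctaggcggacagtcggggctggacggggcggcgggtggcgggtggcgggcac

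Depth and the fibroblast and B cell markers divided the Olfr2+ columns, and the shallower Olfr2+ columns lay near the Olfr2- columns in each. The numbered Olfr2+ samples 2, 3 and 4 held 363.9, 272.6 and 67.5 M counts (M, 1000000) and the Olfr2- samples 1, 3 and 4 held 30.5, 85.0 and 73.9 M. The 7 columns above 60 M, 76.0 to 95.6 M each, were all Olfr2+ (2A to 2D and 3A to 3C), whereas the shallower Olfr2+ columns (3D, 4A and 4B) held 29.9 to 37.6 M and the Olfr2- columns 30.5 to 53.2 M. The transcript of Olfr2 went against the sort, with 1, 9 and 8 counts in the Olfr2+ samples and 76, 34 and 35 in the Olfr2- samples, so directions below are between libraries labelled Olfr2+ and Olfr2-. Summed over 12 macrophage markers, the level was 7847 to 15774 CPM (counts per 1000000) in the deeper Olfr2+ columns, 2824 to 4475 in the Olfr2+ columns below 60 M and 1837 to 8708 for Olfr2-. Summed over 10 fibroblast markers it was 45847 to 62923, 3558 to 5960 and 2969 to 4792 CPM in the same 3 sets. Summed over 9 B cell markers it was 222 to 5592, 35303 to 54942 and 22988 to 41551 CPM. The part of depth and of these other cells in the results below was not tested. Because the aortas were pooled and the labels speak of technical replicates, p-values reflect the spread among these 6 samples, which may be technical and not that among animals.

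None of the cell cycle genes passed the test between labels. With counts summed per numbered sample (n = 3 each) and edgeR's quasi-likelihood test across all 24362 genes, 0 of 39 members had an adjusted p under 0.05, against 1.58% of all genes tested (1.12% higher and 0.46% lower in Olfr2+); the smallest adjusted p among members was 0.090, for Cdk4. At an unadjusted p under 0.05 there were 5 of 39 members, against 32.1% of all genes. Of these, Cdk4 and Mcm2 were higher in Olfr2+ (17.1% of all genes) and Cdk1, Cenpe and Kif20a were lower (15% of all genes). The 3 Olfr2+ samples lay apart from the 3 Olfr2- samples for 2 members, Cdk4 and Mcm2, against 35.5% of all genes. Both were higher in Olfr2+ (13.5% of all genes), and 0 members were lower without overlap (22.1%). DESeq2, with its own size factors and filter, called Mcm2 and Cdk4 higher among the 36 members it tested, against 23.4% of all genes (14% higher and 9.37% lower). With limma-voom 0 of 39 members were called, and also 0 of all 24362 genes.

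The median log2 fold change (Olfr2+ over Olfr2-) was 0.74 over the 19 replication genes and -0.31 over the 20 mitosis genes, beside 0.24 over all genes tested. Of the replication genes 12 had a positive and 7 a negative value, and of the mitosis genes 6 a positive and 14 a negative one. Scaled by library totals in place of TMM factors (edgeR's correction for RNA composition), the median of all genes moved by -1.12 to -0.88, the replication genes stood at -0.49 and the mitosis genes at -1.70. The replication median was thus 0.50 above that of all genes under TMM and 0.38 above it under totals, and the mitosis median differed from it by -0.56 and -0.82. On library totals edgeR again called 0 of 39 members, against 1.63% of all genes. At an unadjusted p under 0.05, 0 members were higher (6.56% of all genes) and Cdk1, Ccna2, Cenpe and Kif20a were lower (25.3%), together 4 of 39 against 31.9%. The groups did not overlap for Cdk4 and Mcm2, which were higher (6.21%), and for Cenpe and Kif20a, which were lower (29.8%), against 36.1% of all genes. The side of the all-gene median on which each arm lay depended on the setting. The mitosis median was above it with DESeq2 (-0.06, beside -0.82 over all genes), without a filter (-0.38, beside -1.26) and without Olfr2+ sample 2 (-0.31, beside -0.61), Olfr2+ sample 3 (-0.43, beside -0.70), Olfr2+ sample 4 (-0.91, beside -1.35) or Olfr2- sample 3 (0.44, beside 0.10). The replication median was below it with a minimum mean of 10 CPM (-0.84, beside 0.17) and with the 15 columns as units (0.15, beside 0.39). That minimum left 29 of the 39 members among 8504 genes tested, so its medians come from fewer genes. The members are not independent replicates, and these medians carry no test.

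Restricting the fit to columns below 60 M, where the depths of both labels overlap, left 2 Olfr2+ samples (column 3D of sample 3, and 4A and 4B of sample 4) against all 3 Olfr2- samples. There edgeR called 0 of 39 members and 0% of 29989 genes tested. At an unadjusted p under 0.05 stood 4 members, against 10.4% of all genes: Chek1 was higher (4.85% of all genes) and Gmnn, Cdk1 and Cenpe were lower (5.58%) in Olfr2+. The groups did not overlap for 1 member that was higher in Olfr2+, against 9.28% of all genes, and for 3 that were lower, against 17.1% of all genes (26.4% in both directions). The median log2 fold change was 0.32 over the replication genes and -0.73 over the mitosis genes, beside -0.43 over all genes.

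**Figure D1:**
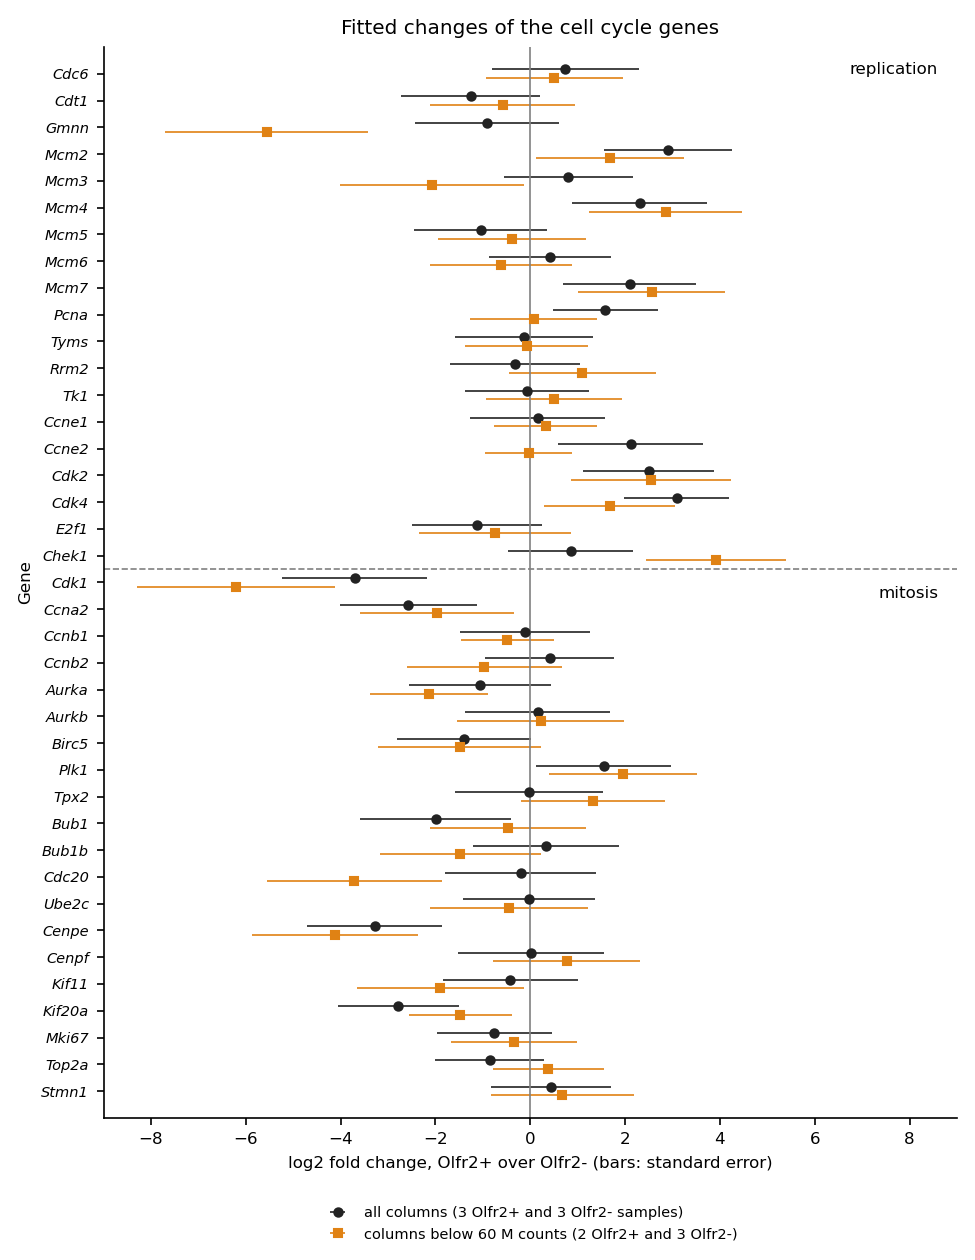
Log2 fold change (Olfr2+ over Olfr2-) of each of the 39 cell cycle genes from edgeR's quasi-likelihood test, over all columns with its standard error and over the columns below 60 M counts. Over all columns Cdk4 (3.09) and Mcm2 (2.91) have the highest values and Cdk1 (-3.70) and Cenpe (-3.28) the lowest, and below 60 M Chek1 (3.91) has the highest and Cdk1 (-6.21) the lowest.

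Origin licensing genes load the replicative helicase in G1 and keep it from loading again. None of the 9 passed the test, and their median log2 fold change was 0.74. Mcm2, a helicase subunit, had 32.8, 55.0 and 30.6 scaled CPM (CPM divided by the TMM factor) in Olfr2+ samples 2, 3 and 4, against 6.12, 5.39 and 4.28 in Olfr2- samples 1, 3 and 4. Every Olfr2+ sample was above every Olfr2- sample, and the Mcm2 log2 fold change was 2.91 (SE 1.35 and adjusted p = 0.142 by edgeR). It was 1.77 on library totals and 1.68 in the columns below 60 M, where the groups overlapped, and DESeq2 gave 3.07 with an adjusted p of 0.0100. Within the samples, Mcm2 was uneven: it had 136 CPM in Olfr2+ column 3B and under 1 CPM in 5 of the 10 Olfr2+ columns.

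Mcm3, which sits beside Mcm5 in the helicase ring, had 155 scaled CPM in Olfr2+ sample 2 and 30.04 and 17.4 in samples 3 and 4, against 0.576, 106 and 9.10 in Olfr2- samples. The groups overlapped (log2 fold change 0.81, SE 1.35 and adjusted p = 0.665 by edgeR), and the sign turned without Olfr2+ sample 2, to -0.73, and on library totals, to -0.49. Mcm6 had 18.8, 38.2 and 17.2 scaled CPM in Olfr2+ and 7.57, 28.0 and 20.1 in Olfr2-. It was among the evener members, with a log2 fold change of 0.41 (SE 1.28 and adjusted p = 0.822 by edgeR), and -0.66 on library totals, -0.06 without Olfr2+ sample 3 and -0.10 without Olfr2- sample 1. The other subunits gave log2 fold changes of 2.31 for Mcm4, 2.10 for Mcm7 and -1.05 for Mcm5, so the 6 parts of 1 ring did not share a direction. Cdc6 and Cdt1, which load the ring, gave 0.74 and -1.26, and Gmnn, the inhibitor of Cdt1, gave -0.92. In the columns below 60 M the value of Gmnn was -5.56 without overlap; its highest column, Olfr2- 4A, held 61.4% of its summed CPM.

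Genes of the fork and of nucleotide supply included Pcna, the sliding clamp, the single member found at 10 CPM or more in all 15 columns. None of the 4 passed the test. Pcna had 145, 151 and 48.7 scaled CPM in Olfr2+ samples, against 16.02, 59.7 and 39.3 in Olfr2- samples. The groups overlapped, since Olfr2+ sample 4 was below Olfr2- sample 3 (log2 fold change 1.58, SE 1.10 and adjusted p = 0.287 by edgeR), and the value was 0.40 on library totals and 0.07 in the columns below 60 M. Tk1, thymidine kinase of the salvage route, had 9.75, 7.42 and 51.6 scaled CPM in Olfr2+ and 9.13, 18.3 and 44.4 in Olfr2-. Sample 4 was the high sample under either label, and the log2 fold change was -0.06 (SE 1.31 and adjusted p = 0.974 by edgeR), against 0.37, 0.41 and 0.77 without Olfr2+ sample 2, Olfr2+ sample 3 and Olfr2- sample 4. Rrm2, a subunit of ribonucleotide reductase, gave -0.32, and Tyms, which makes thymidylate, gave -0.14 and did not reach 10 CPM in any column.

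The genes of the G1/S step had the highest median log2 fold change of the 8 roles over all columns, 1.48. None of the 6 passed the test, and 5 had a positive value. Cdk4, the kinase partner of the D cyclins, had 301, 102 and 107 scaled CPM in Olfr2+ samples, against 18.8, 24.4 and 16.9 in Olfr2- samples. Every Olfr2+ sample was at least 102 and no Olfr2- sample was above 24.4. The means were 170.2 ± 114 and 20.01 ± 3.91 scaled CPM (SD, n = 3 each), with a log2 fold change of 3.09 (SE 1.11 and adjusted p = 0.090 by edgeR). The value was 1.80 on library totals, without overlap, and 1.67 in the columns below 60 M, with overlap; DESeq2 gave 3.31 with an adjusted p of 0.00955. By column, Cdk4 ran from 48.1 to 372 CPM in the deeper Olfr2+ columns, was 12.0, 149.98 and 21.5 CPM in Olfr2+ 3D, 4A and 4B, and ran from 4.33 to 41.8 CPM in the Olfr2- columns.

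E2f1, the activator of replication genes, had 10.04, 19.5 and 13.9 scaled CPM in Olfr2+ samples, against 1.19, 23.9 and 69.5 in Olfr2- samples. The Olfr2- samples lay on both sides of the Olfr2+ samples (log2 fold change -1.12, SE 1.37 and adjusted p = 0.545 by edgeR), and without Olfr2- sample 4 the value was 0.11. Cdk2, the kinase of S phase entry, gave 2.50, and its partners Ccne2 and Ccne1 gave 2.11 and 0.15. Chek1, the kinase that restrains division when replication stalls, gave 0.85 over all columns and 3.91 below 60 M. It had only 597 counts in all, and Olfr2+ column 3D held 74.8% of its summed CPM.

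**Figure D2:**
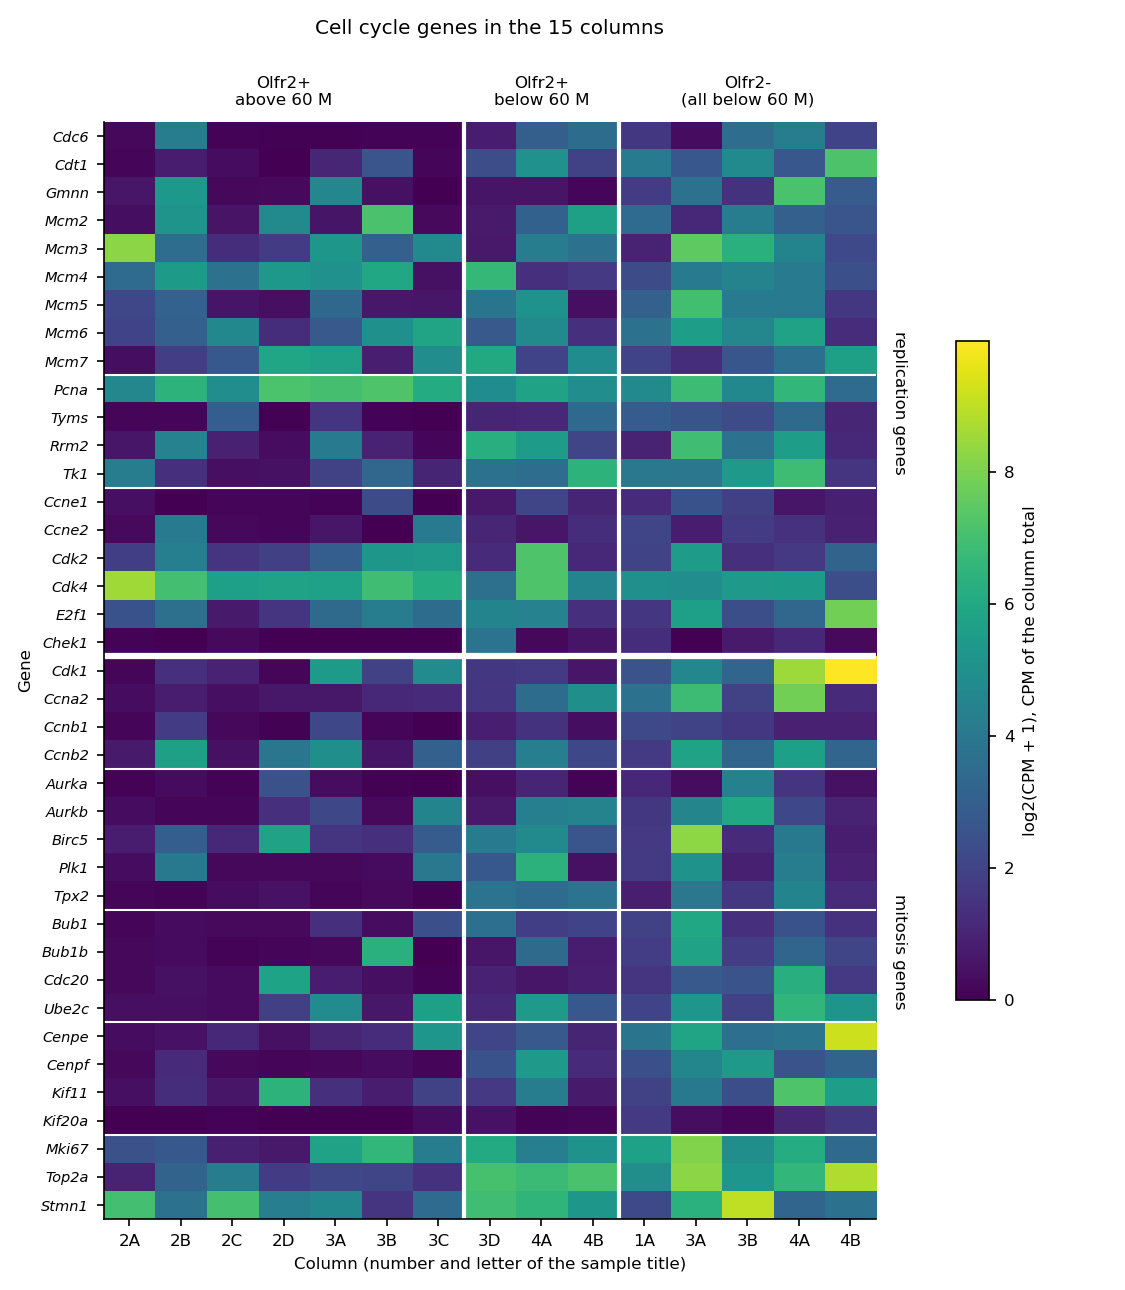
Log2(CPM + 1) of the 39 cell cycle genes in each of the 15 columns, grouped by role, with the deeper Olfr2+ columns at the left, then the shallower Olfr2+ columns and the Olfr2- columns. Most genes are high in a few scattered columns, while Top2a is low across the 7 deeper columns and Pcna is present in all 15.

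Cdk1 and the mitotic cyclins had a median log2 fold change of -1.339 over 4 genes, with none past the test. Cdk1, the kinase that starts mitosis, had 1.46, 30.9 and 1.69 scaled CPM in Olfr2+ samples, against 2.96, 13.6 and 427 in Olfr2- samples. A single sample, Olfr2- 4, stood far above the rest, and Olfr2+ sample 3 was above the other Olfr2- samples. The log2 fold change was -3.70 (SE 1.53 and adjusted p = 0.115 by edgeR), and without Olfr2- sample 4 it was 0.35. Olfr2- column 4B, with 1007 CPM, held 67.4% of the summed CPM of Cdk1, and column 4A had 369.8 CPM.

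Ccna2, cyclin A, had 0.975, 1.61 and 22.2 scaled CPM in Olfr2+ samples, against 7.55, 53.7 and 85.5 in Olfr2- samples. Olfr2+ sample 4 lay within the Olfr2- range (log2 fold change -2.57, SE 1.45 and adjusted p = 0.202 by edgeR), and the value stayed between -5.30 and -1.87 when each sample was left out in turn. All 7 deeper columns had at most 1.343 CPM of Ccna2, and Olfr2- column 4B was as low, with 1.341 CPM. The B cyclins gave -0.11 for Ccnb1, which did not reach 10 CPM in any column, and 0.41 for Ccnb2.

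The mitotic kinases and the passenger complex, which correct chromosome attachment, had a median log2 fold change of -0.03 over 5 genes, with none past the test. Birc5, the survivin subunit of that complex, had 31.8, 6.81 and 19.4 scaled CPM in Olfr2+ samples, against 1.31, 145 and 6.01 in Olfr2- samples. Every Olfr2+ sample was above 2 of the 3 Olfr2- samples, and the negative log2 fold change of -1.40 (SE 1.41 and adjusted p = 0.461 by edgeR) rested on Olfr2- sample 3: without it the value was 2.55. Plk1, the polo-like kinase of spindle assembly, had 8.69, 7.02 and 54.8 scaled CPM in Olfr2+ and 1.37, 15.9 and 6.92 in Olfr2-. Here Olfr2+ sample 4 was the high one (log2 fold change 1.54, SE 1.43 and adjusted p = 0.422 by edgeR), and without it the value was -0.12. Aurka, the spindle pole kinase, gave -1.05, its activator Tpx2 -0.03, and Aurkb, the kinase of the passenger complex, 0.16.

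The genes of the spindle checkpoint and of anaphase had a median of -0.12 over 4 genes, with none past the test. Ube2c, which passes ubiquitin on to the mitotic cyclins, had 1.81, 32.3 and 29.5 scaled CPM in Olfr2+ samples, against 1.85, 18.2 and 44.7 in Olfr2- samples. The groups spanned nearly the same range (log2 fold change -0.03, SE 1.39 and adjusted p = 0.991 by edgeR), and the value was 0.52 without Olfr2+ sample 2 and 1.03 without Olfr2- sample 4. Bub1b, a checkpoint kinase, had 0.284, 32.1 and 6.75 scaled CPM in Olfr2+ and 1.51, 25.4 and 4.08 in Olfr2-. Sample 3 was the high sample under either label (log2 fold change 0.34, SE 1.54 and adjusted p = 0.881 by edgeR), and the value turned to -1.51 without Olfr2+ sample 3, -0.30 without Olfr2- sample 1 and -0.15 without Olfr2- sample 4. Bub1, the kinase that docks checkpoint proteins, gave -1.99, and Cdc20, which activates the anaphase-promoting complex, gave -0.21.

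Kinetochore and motor genes had the lowest median of the 8 roles, -1.601 over 4 genes, with none past the test. Cenpe, the kinesin that gathers chromosomes at the spindle equator, had 1.17, 16.2 and 4.39 scaled CPM in Olfr2+ samples, against 7.94, 29.7 and 173 in Olfr2- samples. Olfr2+ sample 3 lay above Olfr2- sample 1, so the groups overlapped (log2 fold change -3.28, SE 1.43 and adjusted p = 0.125 by edgeR). On library totals they did not overlap, and the value was -4.32. Leaving out each sample in turn gave -4.63 to -1.45, with the value nearest 0 when Olfr2- sample 4 was left out. Olfr2- column 4B, with 587 CPM, held 80.1% of the summed CPM of Cenpe, the highest share of any member.

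Kif20a, the kinesin of the midzone needed for cytokinesis, was among the rarest members, with 252 counts in all. It had 10, 36 and 7 counts in Olfr2+ samples, against 69, 20 and 110 in Olfr2- samples, although Olfr2+ samples 2 and 3 were the deepest of the 6. The log2 fold change was -2.78 (SE 1.28 and adjusted p = 0.139 by edgeR), with overlap between 0.187 scaled CPM in Olfr2+ sample 3 and 0.176 in Olfr2- sample 3. Kif11, which pushes the spindle poles apart, had 45.3, 2.51 and 11.4 scaled CPM in Olfr2+ and 1.75, 8.47 and 69.0 in Olfr2-. Its values interleaved (log2 fold change -0.42, SE 1.42 and adjusted p = 0.837 by edgeR), and its sign turned without Olfr2- sample 4, to 1.81, and without Olfr2+ sample 3, to 0.03. Cenpf, a large kinetochore protein, gave 0.01.

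Mki67, the antigen behind the Ki-67 stain for cycling cells, had 6.13, 81.1 and 28.4 scaled CPM in Olfr2+ samples, against 31.2, 135 and 29.1 in Olfr2- samples. Sample 3 was high under either label, and the groups overlapped. The means were 38.5 ± 38.5 scaled CPM in Olfr2+ and 65.2 ± 60.7 in Olfr2- (SD, n = 3 each), with a log2 fold change of -0.76 (SE 1.21 and adjusted p = 0.646 by edgeR) that became 0.52 without Olfr2- sample 3. Top2a, the topoisomerase that untangles sister chromosomes, had 15.2, 27.0 and 141 scaled CPM in Olfr2+ and 18.1, 151 and 163 in Olfr2-. Olfr2+ sample 4 was near the Olfr2- samples 3 and 4, and the log2 fold change was -0.86 (SE 1.15 and adjusted p = 0.580 by edgeR), against 0.38 in the columns below 60 M.

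Stmn1, which destabilizes microtubules and is not restricted to cycling cells, had 146, 36.4 and 77.5 scaled CPM in Olfr2+ samples, against 2.20, 182 and 6.84 in Olfr2- samples. The Olfr2- samples lay on both sides of the Olfr2+ samples (log2 fold change 0.44, SE 1.26 and adjusted p = 0.808 by edgeR). The value was -0.66 on library totals, -0.16 without Olfr2+ sample 2, -0.27 without Olfr2- sample 1 and -0.22 without Olfr2- sample 4.

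**Figure D3:**
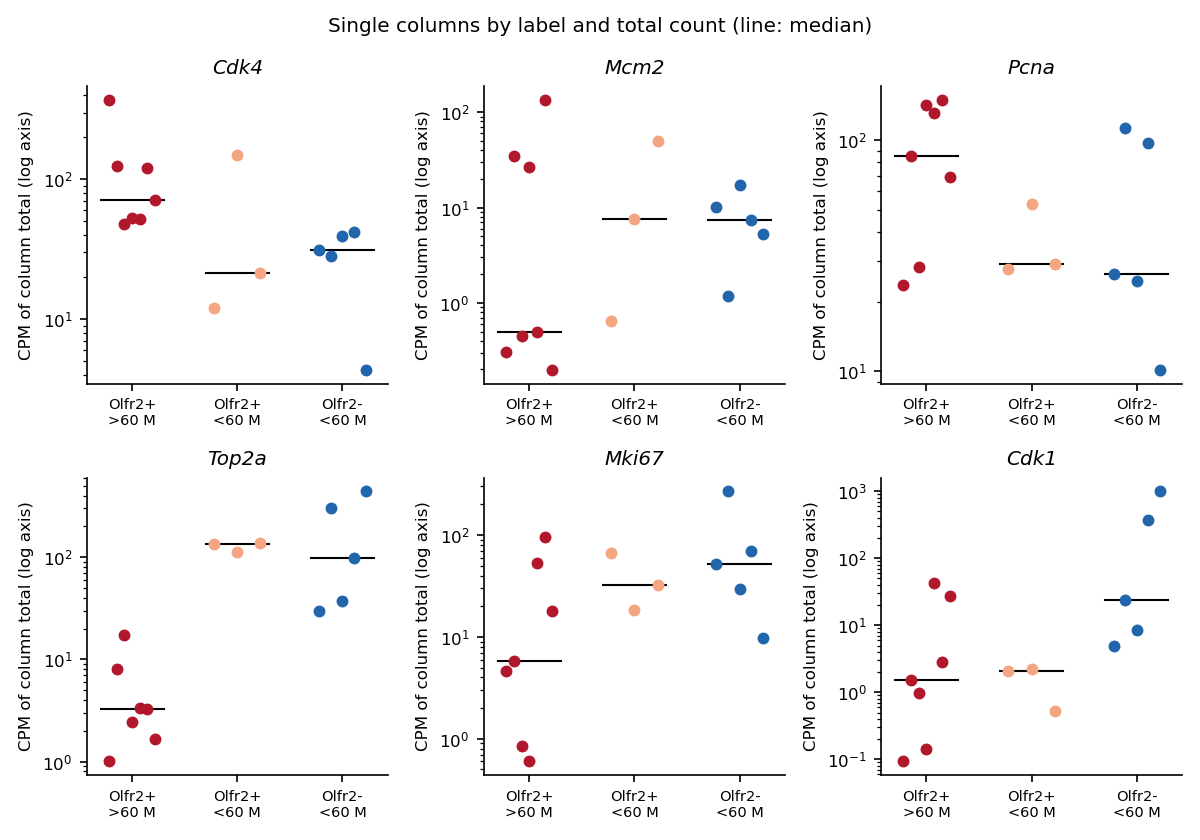
CPM on a log scale of Cdk4, Mcm2, Pcna, Top2a, Mki67 and Cdk1 in every column, with the 7 deeper Olfr2+ columns, the 3 other Olfr2+ columns and the 5 Olfr2- columns side by side. Top2a lies at 1.00 to 17.4 CPM in the deeper Olfr2+ columns and at 29.9 to 442 CPM in the Olfr2- columns, while the sets overlap for Pcna and Mki67.

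Every deeper Olfr2+ column was below every other column for 2 of 39 members, Top2a and the Aurora A activator Tpx2. The same held for 9.46% of all genes tested, so this division is not particular to these 2 genes. Top2a ran from 1.00 to 17.4 CPM in the 7 deeper Olfr2+ columns, from 112 to 136 CPM in the shallower Olfr2+ columns and from 29.9 to 442 CPM among Olfr2- columns. Tpx2 had at most 0.399 CPM in the deeper columns, 10.2 to 13.02 CPM in the shallower Olfr2+ columns, and 0.787 to 21.7 CPM among Olfr2- columns. The fibroblast markers moved with the same division of columns in the opposite direction, and the B cell markers in the same direction, with the sums given above.

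Detection of the members varied between columns, those of the same numbered sample included. At 10 CPM or more, a column held 6 to 15 members in the deeper Olfr2+ set, 13 to 22 in the shallower Olfr2+ columns and 10 to 27 among Olfr2- columns. Of all genes tested, 18.3% to 34.0% were at that level in the deeper columns. The share was 21.1% to 25.6% in the shallower Olfr2+ columns and 18.8% to 25.6% among Olfr2- columns. Pcna was at that level in 15 columns, Cdk4 in 14, Stmn1 in 12 and Mki67 in 10. Tyms, Ccne1, Ccnb1 and Kif20a reached it in 0. Over the 27 members with a mean of at least 10 CPM, the highest column held a median of 43.1% of the gene's summed CPM, beside 28.7% over the 8746 features at that mean level. Birc5, for example, had 309 CPM in Olfr2- column 3A and 1.32 in column 3B, and Mcm2 had 136 CPM in Olfr2+ column 3B and 0.491 in column 3A.

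Columns that carry the same library name shared few of their detected cell cycle genes. Of the members at 10 CPM or more in either column of a pair, the share at that level in both had a median of 33.3% over the 7 pairs that share a library name (23.5% to 45.2%). It was 33.3% over 28 other pairs of 1 label within a depth set (19.05% to 66.7%), and 38.5% over 15 pairs of opposite label (21.1% to 75%). The 3 ranges overlapped, and no test was made of columns, which share samples. The same share was not computed over all genes, so these values cannot show whether the low sharing is particular to cell cycle genes.

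Summed over each arm, mitosis and replication genes gave different orders of the columns. The 19 replication genes summed to 133 to 742 CPM in the deeper Olfr2+ columns, 264 to 560.3 CPM in the shallower Olfr2+ columns and 149 to 761 CPM among Olfr2- columns. The 3 sets overlapped throughout. The 20 mitosis genes summed to 107 to 239 CPM, 294 to 514 CPM and 150 to 2171 CPM in the same sets. Of the 5 Olfr2- columns, 4 were above all 10 Olfr2+ columns, and the exception was column 1A, the single column of Olfr2- sample 1. The ratio of the mitosis sum to the replication sum was 0.182 to 1.17 in the deeper Olfr2+ columns, 0.918 to 1.11 in the shallower Olfr2+ columns and 1.00 to 4.53 among Olfr2- columns.

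Per numbered sample, the mitosis sum was 159, 220.1 and 417 CPM in Olfr2+ samples 2, 3 and 4, against 149.5, 1207 and 1641 CPM in Olfr2- samples 1, 3 and 4. Olfr2- sample 1 was the lowest of the 6 and the other Olfr2- samples the highest. The replication sum was 406, 418 and 429 CPM in Olfr2+ and 149, 601 and 555 CPM in Olfr2-. On these library totals the Olfr2+ samples were within a narrow band that lay between the Olfr2- samples. In scaled CPM the replication sum was 838, 594 and 495 in Olfr2+ and 90.2, 450 and 367 in Olfr2-, without overlap. The mitosis sum in scaled CPM was 328, 312 and 480 in Olfr2+ and 90.5, 905 and 1084 in Olfr2-. A few genes carry these sums, Cdk1 and Cenpe foremost in Olfr2- column 4B with 1007 and 587 of 2171 CPM, so no test was made on them.

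**Figure D4:**
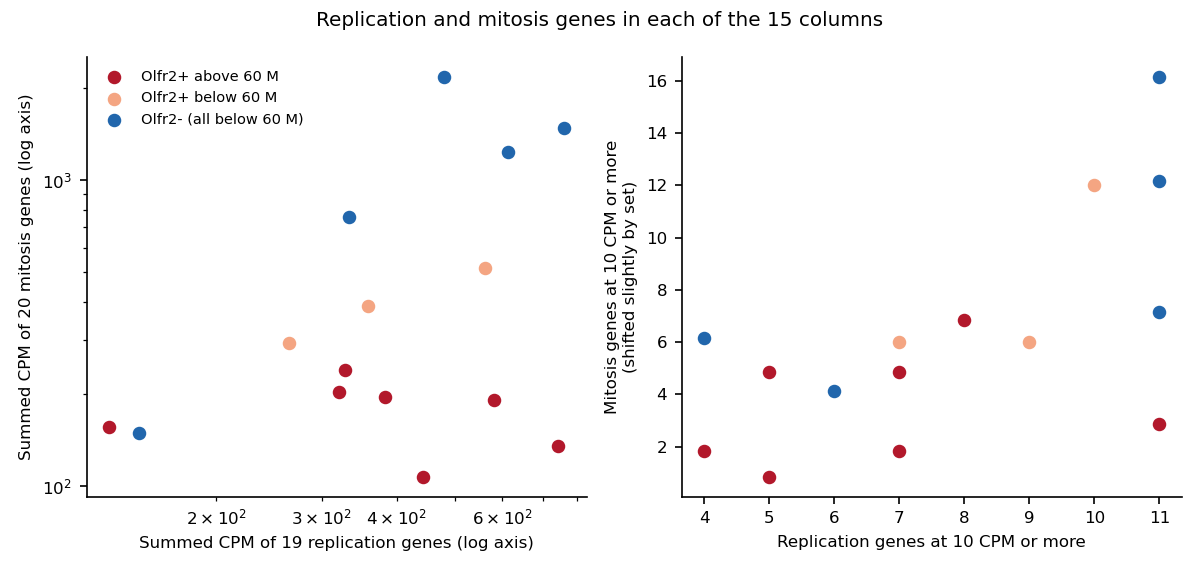
Summed CPM of the 20 mitosis genes against the summed CPM of the 19 replication genes in each of the 15 columns, on log axes, by label and depth set. The 4 highest mitosis sums, 758 to 2171 CPM, are Olfr2- columns, and the 7 deeper Olfr2+ columns lie at or below 239 CPM.

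Mitosis genes varied together over the columns more than replication genes did, as a description over columns that share samples, depth and preparation. The median Spearman correlation of log2(CPM + 1) over 15 columns was 0.40 over the 190 pairs of mitosis genes, 0.10 over the 171 pairs of replication genes and 0.23 over the 380 pairs of 1 gene from each arm. Over the 8 columns below 60 M, the medians were 0.21, 0.10 and 0.14. Cdk1 and Cenpe went together over both, with 0.82 over 15 columns and 0.95 over 8. Tpx2 and Top2a had 0.80 over 15 columns and 0.26 over the 8 columns of similar depth.

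By level per exon length, averaged over the 6 numbered samples, the most abundant members were Stmn1 with 36.5 CPM per kb, Pcna with 26.7, Cdk1 with 23.4 and Cdk4 with 20.5. Cdk1 was that abundant in Olfr2- sample 4 alone, and Stmn1 ran from 1.89 to 127 CPM per kb, highest in Olfr2- sample 3. The rarest were Chek1 with 0.157 and Kif20a with 0.163 CPM per kb.

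Genes of the same pathways outside the 39 gave 2 calls. Of 41 other replication genes, 0 passed edgeR's test, with 5 higher and 4 lower in Olfr2+ at an unadjusted p under 0.05, against 17.1% and 15% of all genes, and a median log2 fold change of 1.25. DESeq2 called 7 higher and 3 lower of the 33 it tested, against 14% and 9.37% of all genes, and limma-voom 0. Of 42 other mitosis genes, 0 passed, with 3 higher and 1 lower at that p and a median of 0.43, beside 0.24 over all genes. DESeq2 called 3 higher and 1 lower of 35, against the same 14% and 9.37% of all genes, and limma-voom 0. By edgeR 1 of 15 brakes of the cycle and 1 of 15 D cyclin, Cdk6 and E2F family genes rose, against 1.12% of all genes. Lists of 15 are too short for 1 call to show a share above that of all genes. DESeq2 called 1 of 12 and 3 of 15 higher in these lists, against 14% of all genes. With limma-voom the count was 0 in either list, and 0 over all genes tested.

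The brake was Cdkn1c, which encodes p57, an inhibitor of cyclin-dependent kinases. It had 67.4, 89.0 and 110.0 scaled CPM in Olfr2+ samples, against 2.36, 1.46 and 3.01 in Olfr2- samples. The groups were far apart (log2 fold change 5.28, SE 1.36 and adjusted p = 0.048 by edgeR), and the value was 5.51 in the columns below 60 M, where the adjusted p was 0.411. The call was lost without Olfr2+ sample 2 or 3 or any single Olfr2- sample, with values of 5.20 to 5.55 and adjusted p from 0.076 to 0.144. Columns of Cdkn1c ran from 0.695 to 81.0 CPM in the deeper Olfr2+ set, from 2.04 to 170 CPM in the shallower Olfr2+ columns and from 0.883 to 6.38 CPM among Olfr2- columns.

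The cyclin was Ccnd3, a D cyclin that activates Cdk4 and Cdk6. It had 468, 153 and 32.3 scaled CPM in Olfr2+ samples, against 4.37, 11.9 and 4.13 in Olfr2- samples. Each Olfr2+ sample was above each Olfr2- sample (log2 fold change 4.999, SE 1.27 and adjusted p = 0.047 by edgeR). In the columns below 60 M the value was 1.93 with an adjusted p of 0.640. The call was lost without Olfr2+ sample 2 (3.76) or 3 (5.12), or without Olfr2- sample 1 (4.56), 3 (5.87) or 4 (4.59), with adjusted p from 0.053 to 0.178.

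From each list with no call, the 2 most abundant genes are given. Pola1, the catalytic subunit of the priming polymerase, had 3.36, 17.4 and 44.2 scaled CPM in Olfr2+ samples, against 613, 5.83 and 36.5 in Olfr2- samples. Its difference rested on Olfr2- sample 1, since without it the log2 fold change was -0.02 and with it -3.33 (edgeR adjusted p = 0.110). Rpa2, of the complex that coats single-stranded DNA, had 6.86, 16.3 and 6.71 scaled CPM in Olfr2+ and 57.5, 237 and 65.1 in Olfr2-. Every Olfr2+ sample was below every Olfr2- sample, with a log2 fold change of -3.59 (edgeR adjusted p = 0.083), and DESeq2 and edgeR on library totals called it lower. Cenpa, the centromeric histone, and Smc4, a condensin subunit, had log2 fold changes of -1.13 and 0.51 with overlap between the groups; the sign turned to 0.18 for Cenpa without Olfr2- sample 1, and for Smc4 to -0.47 on library totals and -0.11 without Olfr2+ sample 4.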

How the data were processed

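The deposited values were raw counts of reads per gene, not normalized, with all 15 columns used and each row naming a gene. Tools named in the submitters' processing notes are STAR 2.7.1, DRAGEN and DESeq2 1.34, with the build GRCm39 and no roles; annotation release and strand setting were not given in the sources read. Smart-Seq2, per the labels' protocols, amplifies cDNA and adds no molecular identifiers, so reads are not separate molecules, and genes that overlap on opposite strands cannot be told apart.

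Titles carry a number and a letter; the number was taken as the sorted sample and the letter as its repeat, matching the 3 per group in the labels' protocols. Counts were summed per numbered sample. Pairs of columns that share a library name differed by a chi-square of at least 407 per degree of freedom, so none was counted as a repeat deposit. Genes were tested with edgeR 4.0.16 in R 4.3.3 (quasi-likelihood F test, TMM, its expression filter by group) and Benjamini-Hochberg adjustment over all genes tested, with a threshold of 0.05. The standard error was derived from the F statistic, and the fit was tested on simulated data. Alternatives were DESeq2 1.42.0, limma-voom 3.58.1, library totals, filters, columns or library names as units, a replicate block and leaving out each sample. The 60 M division follows column totals known from earlier work on these data.

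Members, lists, rules and tests were chosen with earlier results of these data known. Values in every sample are given for the 2 members of each role with the highest mean CPM, for Mki67, and for members with an unadjusted p under 0.05. From each list outside the members they are given for genes past the test, or else for the 2 with the highest mean CPM. Exon lengths were taken by gene identifier from the GENCODE annotation supplied, and promoters by symbol from RefSeq, both of a build older than GRCm39.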

Additional observations from a re-analysis of the deposited data

How the results depend on the processing

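No replication or mitosis gene was called by edgeR on library totals, without a filter, with a minimum mean of 10 CPM, with the 8 library names as units, below 60 M, with the replicate block or without any 1 sample, nor by limma-voom; DESeq2 called 2 replication genes (Mcm2 and Cdk4), and the 15 columns as units, which overstate the replication, called 2 mitosis genes, Cdk1 (-4.43, edgeR adjusted p = 0.024) and Cenpe (-4.08, 0.039), lower. Over all genes, against 385 calls, the count was 6707 with DESeq2, 0 with limma-voom, 881 without a filter, 0 with a mean of 10 CPM, 1568 with library names, 893 with columns, 0 below 60 M and 6 to 1086 without 1 sample. The replication median was -0.49 on library totals and -0.84 with a mean of 10 CPM; without 1 sample it ran from 0.03 to 1.33, and the mitosis median from -1.08 to 0.44. The numbers 3 and 4 occur under both labels, and the deviations of same-numbered samples had correlations of 0.012 and -0.056 over 24362 genes. With 3 samples per label that differ in depth, these values cannot show whether same-numbered samples share more than a number. With the replicate block 2 genes were called, and no member was among them. There the sign turned for Mcm3 (-0.44), Ube2c (0.11), Pola1 (0.93) and Cenpa (0.51).

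Signs also turned as follows. On library totals they did so for Mcm3 (-0.49), Mcm6 (-0.66), Bub1b (-0.58), Stmn1 (-0.66) and Smc4 (-0.47). With a mean of 10 CPM they did so for Mcm3 (-0.68), Mcm6 (-0.998), Bub1b (-0.89), Stmn1 (-0.78) and Smc4 (-0.75). Below 60 M they did so for Mcm3 (-2.08), Mcm6 (-0.61), Tk1 (0.50), Bub1b (-1.47) and Top2a (0.38). With DESeq2 they did so for Tk1 (0.063) and Ube2c (0.061), with limma-voom for Birc5 (0.40) and Bub1b (-0.52), and with columns as units for Smc4 (-0.047). Without 1 sample, the log2 fold change ran from -0.73 to 3.96 for Mcm3, -0.10 to 1.00 for Mcm6, -1.54 to 0.77 for Tk1, -1.82 to 0.11 for E2f1, -6.56 to 0.35 for Cdk1, -2.10 to 2.55 for Birc5, -0.12 to 2.62 for Plk1, -1.51 to 2.38 for Bub1b, -0.65 to 1.03 for Ube2c, -1.88 to 1.81 for Kif11, -1.87 to 0.52 for Mki67, -0.27 to 4.42 for Stmn1, -1.54 to 0.18 for Cenpa and -0.11 to 0.84 for Smc4. Cdkn1c and Ccnd3 were no longer called on library totals (4.19 and 3.62), with limma-voom (5.27 and 4.71), with a mean of 10 CPM (3.78 and 3.22), below 60 M, or with the replicate block (5.56 and 3.33). The cause was not tested. Kif20a and Chek1 had the fewest counts of the members, 252 and 597 in all.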
